A study of Zea mays with 14 samples.

Results

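A set of 198 Affymetrix probe sets gave higher signals in polysomal RNA than in total RNA of germinated maize (Zea mays) embryonic axes. They were 198 of the 17555 maize probe sets on the array that the rule could take, or 1.13%. A probe set belonged when its lowest value on the 6 polysomal arrays exceeded its highest value on the 5 germinated total RNA arrays and the mean difference was at least 0.8 on the log2 scale. Its mean on the 2 arrays of 24 h sample M4 also had to lie within 3 log2 units of the mean of the quiescent arrays. A mirror rule for lower polysomal signals took 430 probe sets.

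A polysome is an mRNA carrying several ribosomes, and polysomal RNA is commonly taken as the RNA in translation. Dry seeds store mRNAs made during embryo development, and both these and mRNAs transcribed after water uptake can enter polysomes during germination. A higher share on polysomes than in total RNA is read as more frequent loading of that mRNA relative to others.

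The study hybridised RNA from 11 samples to 14 arrays. Polysomal RNA with insulin (samples 1 to 3) came from axes of seeds imbibed for 22 h at 27 °C in darkness and then kept 2 h in Murashige and Skoog medium with bovine insulin at 200 µU/mL. Polysomal RNA without insulin (samples 1 to 3) came from axes kept in the same medium without it. Total RNA with insulin was 1 sample on 2 arrays. Its axes likewise had 22 h of imbibition and 2 h in medium with insulin at 200 µU/mL. Axes taken from seeds after 24 h of germination gave total RNA sample M4 on 2 arrays and sample RB on 1 array, and total RNA of quiescent axes (0 h) was sample 1 on 2 arrays and sample 2 on 1 array. The sources used here do not say whether the 24 h axes passed through the medium. Polysomal enrichment and the incubation in medium therefore cannot be told apart between the no-insulin polysomal samples and the 24 h samples. Nor can insulin and the incubation be told apart between the insulin total sample and the 24 h samples. Polysomes were concentrated through a sucrose cushion, and the polysomal extracts started from 2 g of axes while the total RNA extracts started from 1 g. The labels do not say whether replicates came from separate seed lots, so the spread may be partly technical. Polysomal sample 2 with insulin stood apart in the hybridisation controls, with a median of 3.97 over 27 probe sets, against 8.98 to 10.7 in the other samples. Without it the rule took 228 members, 189 of them among the 198.

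The members were chosen by the difference between polysomal and germinated total RNA, which is therefore given as a description only. It had a median of 0.98 on the log2 scale and ran from 0.80 to 2.74, against a median of -0.05 over all 17555 probe sets. It reached 1 in 94 members, 1.5 in 17 and 2 in 8. Non-overlap of the 6 polysomal arrays above the 5 germinated total arrays held for 5.67% of all probe sets, and the size limit and the M4 limit removed most of these. The gap from the lowest polysomal to the highest total array had a median of 0.28 log2 units, with extremes of 0.0017 and 1.26. At the size limit, Zm.16232.1.A1_a_at, Zm.6118.2.S1_at and Zm.17311.1.S1_at lay just inside at 0.80 each, while Zm.1388.1.A1_at, Zm.13940.1.S1_at and Zm.3998.1.S1_at lay just outside, also at 0.80 after rounding. The M4 limit left out 43 probe sets that met the other conditions, 42 of them higher in M4 than in quiescent axes, so mRNAs that far above their quiescent level are missing from the set by construction. Nearest that limit, Zm.12295.2.S1_a_at at -2.94 and Zm.11337.1.A1_at at 2.95 stayed in, and Zm.53.1.S1_at at 3.09 and Zm.930.1.A1_at at 3.12 did not.

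**Figure D1:**
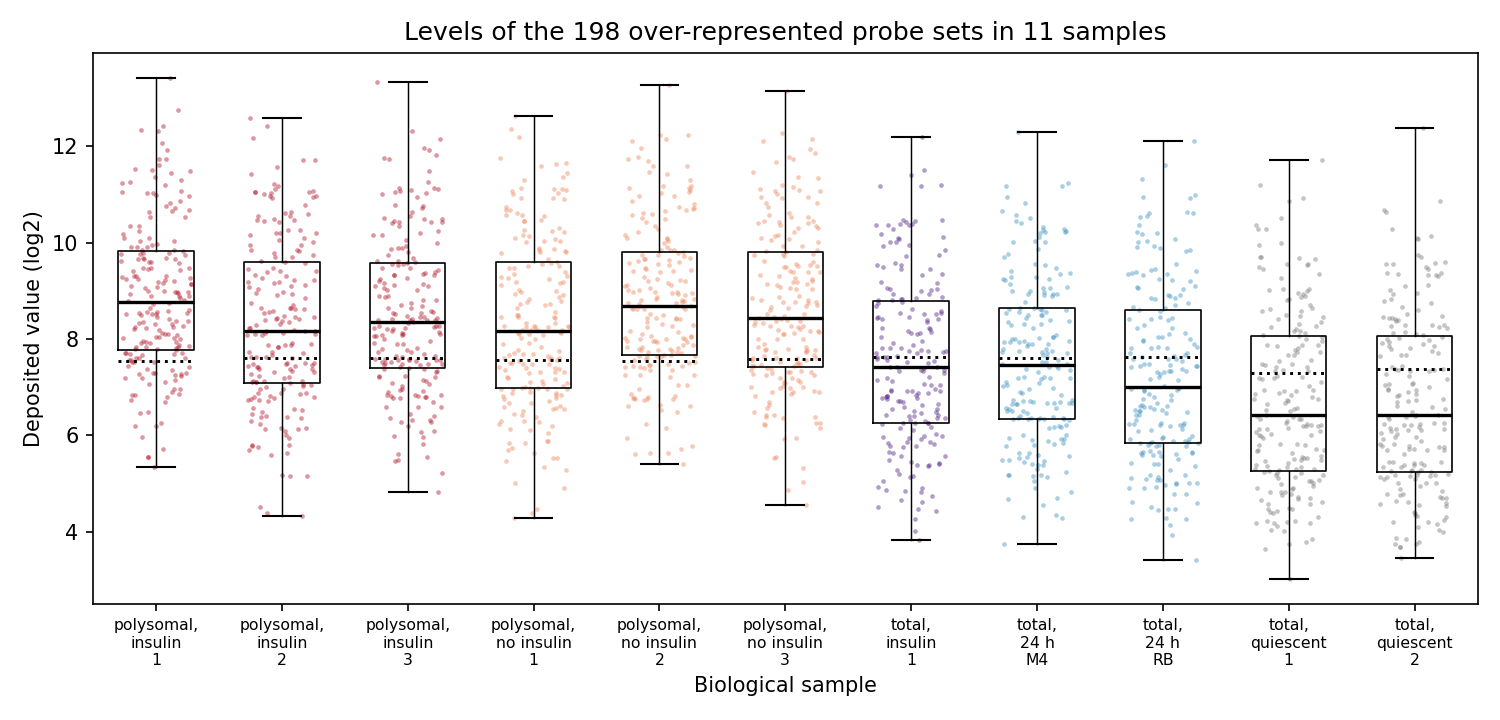
Deposited log2 values of the 198 members (points) in each of the 11 biological samples, technical arrays averaged; boxes give quartiles, whiskers the full range, solid lines the member median and dotted lines the median of all 17555 probe sets. The member median lies above the dotted line in all 6 polysomal samples, between 8.16 and 8.76, and below it in every total RNA sample.

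The members were probe sets of intermediate signal. Their median was 8.46 on polysomes (7.58 for all probe sets), 7.35 in germinated total RNA (7.63 for all) and 6.41 in quiescent axes (7.33 for all). Each array's background level, the 95th percentile over its 23 negative controls, lay between 4.29 and 5.03. Above it on every polysomal array were 195 members, and on every germinated total RNA array 185. Only 4 members were at background on all germinated total arrays, and 21 were at background on all quiescent arrays, or 10.6% against 15.0% of all probe sets.

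The 5 members with the largest differences, singled out after their values were seen, carry no gene name in the annotation used here. Zm.1835.2.A1_at read 8.55, 7.11 and 7.95 in insulin polysomal samples 1 to 3 and 6.83, 8.94 and 8.09 in polysomal samples 1 to 3 without insulin. Its values were 5.57 and 5.18 on the insulin total arrays, 5.19, 5.15 and 4.79 on the 24 h arrays, and 4.57, 4.85 and 5.10 on the quiescent arrays. Every polysomal array was therefore higher than every total array, while the quiescent and 24 h arrays overlapped, and the polysomal over germinated total ratio was 6.67-fold. The spread among its polysomal samples was an SD of 0.81 (n = 6), with sample 1 without insulin lowest and sample 2 without insulin highest. Another probe set with the same number after the species prefix, Zm.1835.1.A1_at, also lay wholly above germinated total RNA, by 1.92. Unlike the member, it averaged far lower in quiescent axes (3.53) than in germinated total RNA (7.01). The M4 limit left it out, at 3.81.

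Zm.4358.1.S1_at read 8.98, 6.48 and 8.22 with insulin and 6.43, 8.63 and 8.27 without it on polysomes. On total RNA arrays it read 4.65 and 4.57 with insulin, 5.74, 5.80 and 5.00 at 24 h and 4.06, 4.38 and 3.98 in quiescent axes, where it was at background on every array. The polysomal values were at least 8.46-fold above the quiescent background level, and insulin sample 2 and no-insulin sample 1 were again the lowest polysomal samples. Zm.3573.1.A1_at had the same lowest pair, with 9.11, 6.01 and 8.16 on polysomes with insulin and 5.88, 8.04 and 7.61 without. Its total RNA values stood at 4.87 and 4.81 with insulin, 5.36, 5.51 and 4.77 at 24 h and 4.00, 4.01 and 3.74 in quiescent axes. The groups did not overlap between polysomal and total arrays, and the lowest polysomal samples exceeded the highest 24 h array by far less than the highest ones did.

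A different quiescent level set Zm.12295.2.S1_a_at apart. It read 9.47, 6.53 and 8.27 on polysomes with insulin and 6.50, 9.57 and 8.01 without. Germinated total RNA gave 6.19 and 6.04 with insulin and 5.54, 5.72 and 5.86 at 24 h, whereas quiescent axes gave 8.10, 8.23 and 9.37. The quiescent arrays thus lay within the polysomal range and above all germinated total arrays. Limma's test across all 17582 probe sets (Benjamini-Hochberg adjustment) put the 24 h minus quiescent difference at -3.02 ± 1.04 (SE), adjusted p = 0.0385, and each of the 4 fits that left out 1 of these samples lost the call (adjusted p from 0.0662 to 0.188).

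Among the 198, 16 probe sets were paired with a gene, and 182 were not. Of these genes, 5 were glutathione S-transferases, enzymes that join glutathione to electrophilic and toxic compounds. This family was picked out after its values were seen. The array held 35 probe sets of 31 such genes, with a median polysomal minus germinated total difference of 0.29. Of these, 6 lay wholly above germinated total RNA and 0 wholly below it. Over all 17555 probe sets, 996 (5.67%) lay wholly above and 1232 wholly below. The member probe set of gst13 (Zm.17475.1.S1_x_at) read 7.66, 6.10 and 6.59 on polysomes with insulin and 5.34, 6.61 and 7.03 without. In total RNA it read 4.55 and 5.30 with insulin, 4.86, 4.94 and 5.27 at 24 h, and 3.92, 3.55 and 4.32 in quiescent axes, at background on every quiescent array. Polysomal arrays were all above total arrays, by 0.04 log2 units at the closest pair, and a second gst13 probe set (Zm.543.1.S1_at) differed by 0.36 and overlapped, so the probe sets of that gene disagreed.

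The member for gst9 (Zm.540.1.A1_at) ranged from 7.35 to 7.99 on polysomes, from 6.21 to 6.65 in germinated total RNA and from 6.12 to 6.53 in quiescent axes. Its germinated and quiescent total arrays overlapped, and its 24 h minus quiescent difference was 0.04 ± 0.26 (SE), adjusted p = 0.920 by limma. In contrast, gst32 (Zm.557.1.A1_at) ranged from 7.80 to 8.41 on polysomes, from 6.82 to 7.20 in germinated total RNA and from 4.45 to 5.76 in quiescent axes. Its groups did not overlap, and it rose by 1.67 ± 0.29 log2 units at 24 h over quiescent axes (SE, adjusted p = 0.00135 by limma). GST26 (Zm.552.1.A1_at) and gst8 (Zm.539.1.A1_at) kept the same order of levels and also rose at 24 h (adjusted p = 0.00486 and 0.000825 by limma), gst8 by 1.88 ± 0.30 log2 units (SE).

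ZmHP3 (Zm.10846.1.A1_at), a histidine phosphotransfer protein that passes phosphate from cytokinin receptors to response regulators, read 7.60, 7.49 and 7.03 on polysomes with insulin and 7.56, 7.79 and 7.45 without. Its total RNA values were 6.23 and 6.57 with insulin, 6.05, 5.85 and 6.26 at 24 h and 5.87, 6.53 and 6.21 in quiescent axes. The polysomal arrays stood alone, since all total arrays overlapped, and the 24 h minus quiescent difference was -0.10 ± 0.22 (SE), adjusted p = 0.725 by limma. The leucine-rich repeat receptor kinase gene ltk1 (Zm.382.1.S1_at) ranged from 8.64 to 9.43 on polysomes, from 7.33 to 8.62 in germinated total RNA and from 7.84 to 8.13 in quiescent axes. Its closest polysomal and 24 h arrays differed by 0.02, and its RB array was the lowest of all.

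The gene thi1-2 (Zm.1035.1.S1_at), which makes the thiazole part of thiamine, read 11.92, 11.04 and 11.82 on polysomes with insulin and 11.31, 11.96 and 11.78 without. Total RNA gave 10.56 and 10.29 with insulin, 10.47, 10.55 and 10.98 at 24 h, and 11.72, 11.70 and 12.37 in quiescent axes. The quiescent and polysomal arrays overlapped and both lay above germinated total RNA. It fell at 24 h by 1.30 ± 0.36 log2 units (SE, adjusted p = 0.0150 by limma), a call lost without M4 (0.0783) or without quiescent sample 2 (0.109). The same order was seen for pdrp1 (Zm.4189.1.S1_at), the regulator of pyruvate orthophosphate dikinase, from 6.88 to 7.79 on polysomes, 6.24 to 6.80 in germinated total RNA and 7.53 to 8.30 in quiescent axes. Its fall at 24 h of 1.36 ± 0.38 (SE, adjusted p = 0.0155 by limma) was also lost without M4 or without quiescent sample 2. LOC732754 (Zm.14795.1.A1_at), a cystatin that inhibits cysteine proteases, was the steadiest of those shown by sample, at 10.97, 11.05 and 11.12 on polysomes with insulin and 11.11, 10.80 and 11.35 without. It read 10.33 and 10.24 on the insulin total arrays, 10.22, 10.27 and 10.18 at 24 h and 8.58, 8.85 and 8.75 in quiescent axes. Its polysomal, germinated total and quiescent arrays did not overlap, and it rose at 24 h by 1.48 ± 0.19 (SE, adjusted p = 0.000216 by limma).

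Of the other named members, ftr1 (Zm.101.2.S1_a_at), a subunit of ferredoxin-thioredoxin reductase, which passes electrons to thioredoxin in plastids, ranged from 8.13 to 8.76 on polysomes, 7.17 to 7.81 in germinated total RNA and 8.08 to 8.37 in quiescent axes. LOC542500 (Zm.861.2.A1_a_at), listed under the histone H3 names cenH3 and Hist1h3b, averaged 7.81 on polysomes, 6.88 on the germinated total arrays and 7.87 in quiescent axes. A second ftr1 probe set (Zm.101.2.A1_at) averaged 4.47 on polysomes and 4.48 in germinated total RNA, within the range of the background levels, so it measured no difference. A second LOC542500 probe set (Zm.861.2.S1_at) ranged from 4.77 to 5.28 on polysomes and from 4.72 to 5.20 in germinated total RNA. It averaged 6.02 in quiescent axes. Its polysomal arrays were not far above the polysomal background levels of 4.29 to 4.56, and its difference was 0.10. Values that near background cannot show whether the probe sets of LOC542500 disagreed. LOC542467, LOC542000 and LOC542006 had differences of 1.43, 1.19 and 1.08. A second LOC542467 probe set (Zm.13367.1.S1_x_at) differed by 1.48, although its polysomal arrays (5.75 to 8.72) and germinated total arrays (4.67 to 6.06) overlapped. For these 3 genes no role is given here because their listed names conflict or are uninformative.

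**Figure D2:**
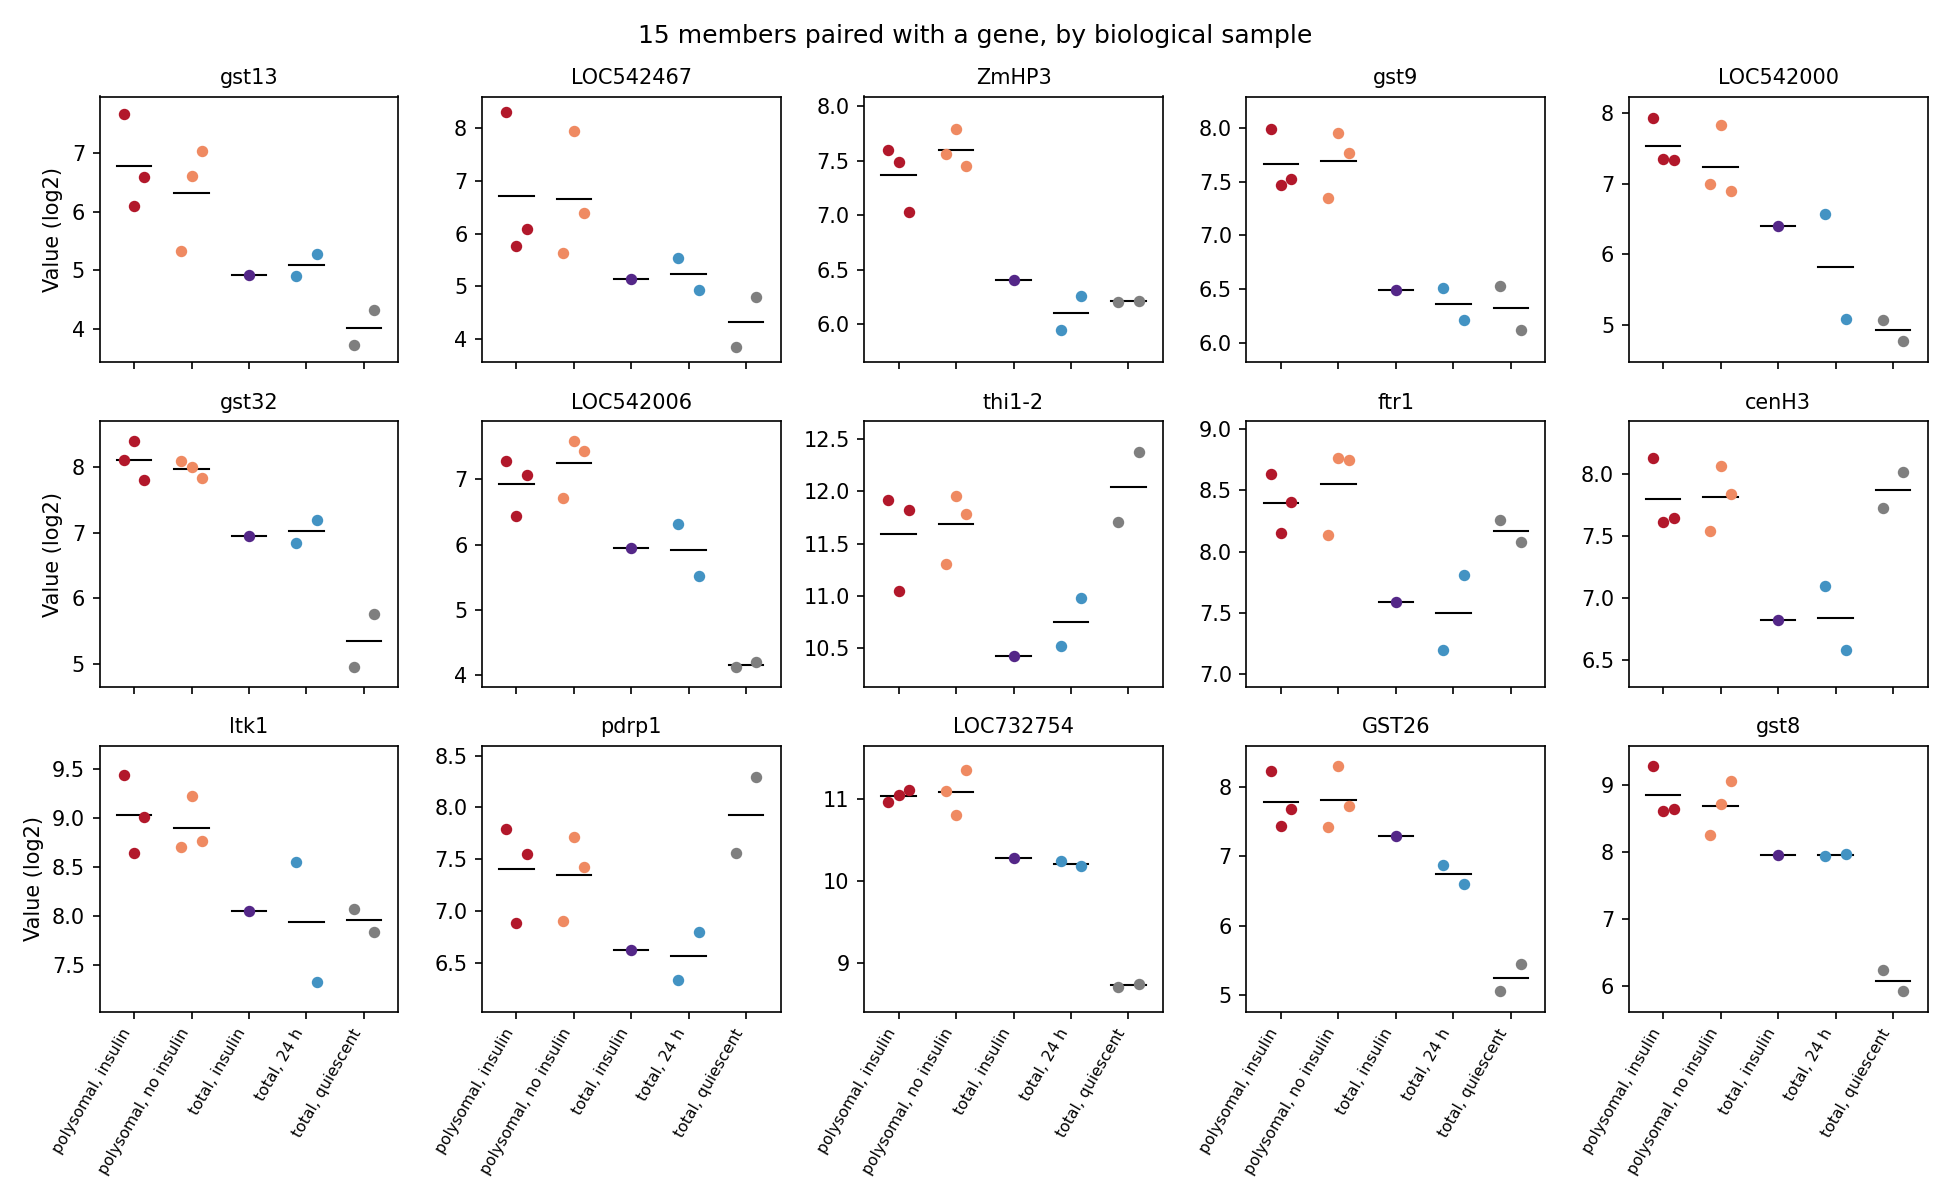
Deposited log2 values of 15 of the 16 members paired with a gene, 1 panel each with its own axis; points are biological samples (technical arrays averaged) and bars are group means. The quiescent samples are lowest for gst32, gst8, GST26 and LOC732754, while for thi1-2 and pdrp1 they reach or exceed the polysomal samples.

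The other gene lists contributed at most 1 member each, and were chosen with earlier results of these data known. Members were 1.13% of all probe sets. At that share, lists of 2 to 31 probe sets would hold few or none, so nothing is read from these counts. Cytosolic ribosomal proteins, which the series title names, had 20 probe sets of 15 genes on the annotated part of the array and 0 members. Their median difference was 0.14, with 3 wholly above and 1 wholly below germinated total RNA, against 996 and 1232 of all 17555 probe sets. The largest was rpl29 (Zm.457.1.S1_at) at 0.52, below the limit of 0.8. Translation factors (13 probe sets, median 0.04), cell cycle genes (13, median 0.03), chaperones (13, median 0.25), cell wall genes (31, median 0.02), cytoskeleton genes (21, median -0.09) and mitochondrial respiration genes (2, median 0.12) had 0 members. One cell wall gene, xet1 (Zm.704.1.S1_at), a xyloglucan endotransglycosylase singled out after its values were seen, lay wholly above germinated total RNA by 1.73. It averaged 10.2 on polysomes, 8.43 in germinated total RNA and 4.56 in quiescent axes, and was no member because M4 exceeded quiescent RNA by 4.26. Histones had 1 of 12, LOC542500. The storage and late embryogenesis list (10 probe sets, median -0.32) and the insulin and TOR signalling list (2, median -0.17) had 0, and no proteasome or ubiquitin gene was matched. Endosperm and aleurone storage genes, which would mark other seed tissue, had 14 probe sets and 0 members. Of these, 11 averaged below the lowest background level of 4.29, at 2.96 to 3.84 on polysomes and 3.02 to 3.86 in germinated total RNA, where no difference can be measured. The other 3, all of the zein gene gz27, averaged 8.11, 5.69 and 4.76 on polysomes and 8.41, 5.61 and 4.65 in germinated total RNA.

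The quiescent level divided the members. Mean quiescent RNA lay below mean germinated total RNA for 148 members (74.7%, against 41.1% of all probe sets). It lay between germinated total and polysomal RNA for 36 (18.2%, against 4.36%), and at or above polysomal RNA for 14 (7.07%, against 54.6%). The rule placed polysomal RNA at least 0.8 above germinated total RNA in every member. That choice widens the class between them and narrows the one above, so nothing is read from the shares of those classes. Array by array, all 3 quiescent arrays were below all 5 germinated total arrays for 106 members, where 25.9% of all probe sets were, and above them for 27, where 31.7% were. The remaining 65 overlapped. In these bulk extracts, fewer cells of a type and less RNA per cell cannot be told apart.

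By limma across all probe sets, 91 of 198 members were higher at 24 h than in quiescent axes, where the background was 21.3% of probe sets, and 17 were lower, where it was 25.8%. The median difference was 0.82 on the log2 scale for members and -0.17 for all. The rule favoured low values on these 24 h arrays and removed the strongest changes, so these counts are read with that choice. Polysomal RNA against quiescent total RNA gave 166 members higher (background 26.8%) and 6 lower (36.3%), with a median of 2.02 against -0.19 for all. Since the members were taken for high polysomal values, nothing is read from that count, and both comparisons use the same quiescent arrays.

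Both ends of this range were named by rule. Zm.11337.1.A1_at was among the 5 members with the lowest quiescent levels relative to germinated RNA. It read 8.98, 8.47 and 8.01 on polysomes with insulin and 8.50, 8.97 and 8.66 without. Total RNA gave 7.16 and 7.08 with insulin, 7.17, 7.56 and 7.48 at 24 h, and 4.94, 4.03 and 4.29 in quiescent axes. Background levels in quiescent samples 1 and 2 were 4.81 and 4.58, so its quiescent values were near background. The 3 levels did not overlap, and the rise at 24 h was 3.03 ± 0.29 (SE, adjusted p = 4.1e-05 by limma). Zm.7008.1.A1_at, Zm.10091.1.A1_at, Zm.10168.1.A1_at and Zm.1416.1.S1_at shared this order and rose at 24 h by 2.41, 2.61, 3.12 and 3.26 (adjusted p from 5.56e-05 to 0.00111 by limma). At the other end, Zm.5679.1.S1_at read 6.89, 6.39 and 6.28 on polysomes with insulin and 6.13, 6.80 and 6.37 without. Total RNA gave 5.44 and 5.70 with insulin, 5.39, 5.59 and 5.65 at 24 h, and 7.80, 7.67 and 8.37 in quiescent axes. The quiescent arrays were above all polysomal arrays, which were above all germinated total arrays. It fell at 24 h by 2.48 ± 0.30 (SE, adjusted p = 0.000156 by limma), and Zm.10142.1.A1_at, Zm.18715.1.A1_at and Zm.11651.1.A1_at fell by 1.83, 1.99 and 1.69 (adjusted p = 0.000158, 0.000411 and 0.00145 by limma).

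**Figure D3:**
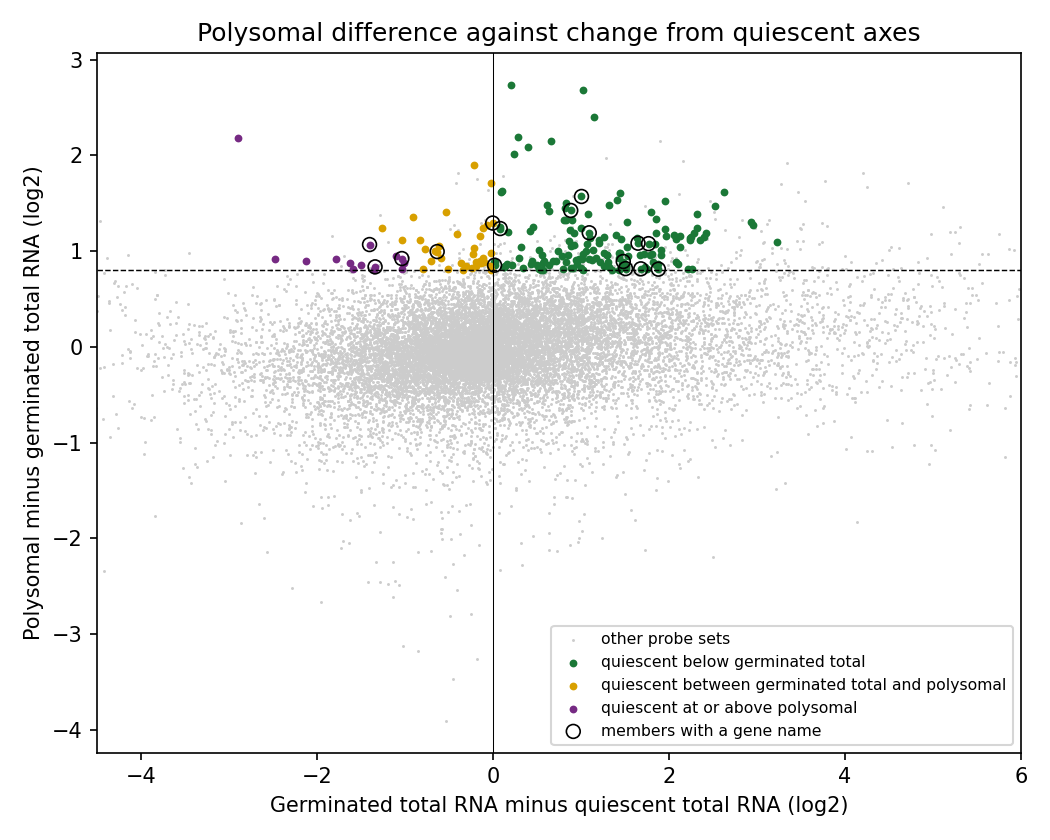
Each point is a probe set; the x axis is germinated total minus quiescent total RNA and the y axis polysomal minus germinated total RNA (log2), with a few probe sets of larger change outside the panel, grey for non-members and the dashed line at the limit of 0.8. Members are coloured by where their quiescent level lies: 148 lie right of 0, and the 14 at or above polysomal RNA lie at the left; circles mark the 16 with a gene name.

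The 24 h samples were not equal for these members. RB was below M4 in 124 of 198 (62.6%), with a median RB minus M4 difference of -0.21, against 0.00 over all probe sets. The rule used both samples and set a limit against quiescent axes for M4 alone, so nothing is read from this share. ZmAffx.965.1.A1_at, singled out after its values were seen, read 11.19 and 11.29 on the M4 arrays and 8.66 on the RB array. Its RB value resembled quiescent axes (9.00, 8.80 and 8.47), while its polysomal values lay within 0.18 log2 units of each other, between 11.57 and 11.76. Its 24 h minus quiescent difference was 1.27 ± 0.63 (SE, adjusted p = 0.125 by limma), -0.02 without M4 and 2.56 without RB.

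On polysomes, no insulin difference of a member passed the test. By limma, 0 of 198 passed an adjusted p of 0.05 (0.0% of all probe sets did), and 0 passed an unadjusted p of 0.05, which 57 of all 17582 (0.324%) did. The insulin minus no-insulin difference had a median of -0.02, with a median SE of 0.24 (n = 3 each). Its extremes, chosen after the values were seen, were 0.77 ± 0.40 for Zm.16312.1.S1_at and -0.40 ± 0.20 for Zm.13346.1.S1_at (SE). Zm.16312.1.S1_at read 8.36, 6.77 and 8.22 with insulin and 6.45, 7.35 and 7.26 without, so that its insulin sample 2 lay among the no-insulin values. The 95% confidence interval lay within 2-fold in either direction for 80.8% of members (91.6% of all probe sets), and for the rest it reached beyond 2-fold. Deviations from a group mean oppose each other within a group by construction, so they were compared only between the insulin groups. The closest pairs there correlated at 0.70, 0.77 and 0.60 over all probe sets, and only 1 of these pairs shared a number. The labels give no such pairing and the fit has no block for it, so this shared variation is part of the SE.

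In total RNA, insulin was a single sample with no spread of its own, and the fit took its spread from the other groups. That sample passed through the medium, which is not known for the 24 h samples, so insulin and the incubation cannot be told apart. There, 0 members passed the adjusted threshold (0.0% of all) and 6 passed the unadjusted one (2.43% of all). The median insulin minus 24 h difference was 0.08, between -0.93 for Zm.9670.1.A1_at and 1.22 for ZmAffx.965.1.A1_at, both singled out after their values were seen. Its interval, on that assumed spread, was within 2-fold for 38.4% of members (63.2% of all probe sets). Without M4 the fit compares 1 insulin sample with RB alone and not the conditions. The members' median difference was then 0.17, and -0.02 without RB. The difference between the insulin effects on polysomes and in total RNA passed for 0 members (0.0% of all) after adjustment and for 3 before it (1.72% of all). It has the same limit of a single insulin total sample.

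**Figure D4:**
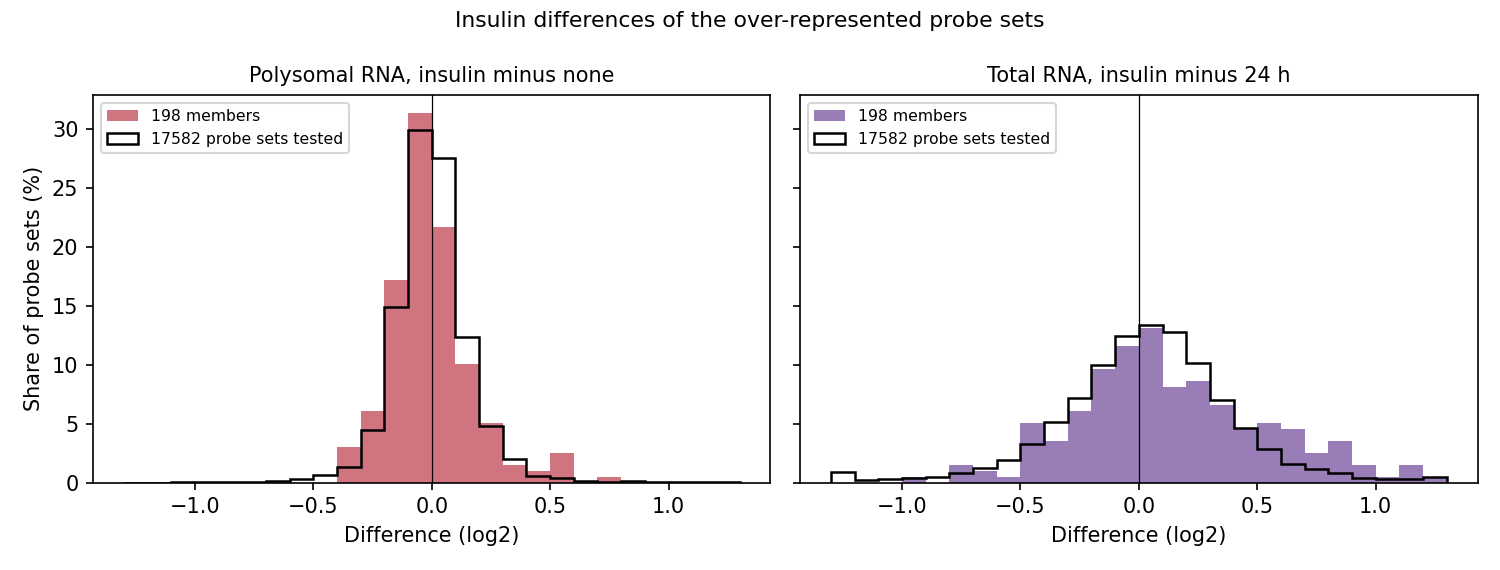
Histograms of insulin differences (log2, x axis) as a share of probe sets (%, y axis) for the 198 members (filled) and all 17582 tested (outline, with values beyond the axis placed in the end bins). The polysomal panel is centred near 0 with members between -0.40 and 0.77; the total RNA panel, from 1 insulin sample, is wider.

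Members ranged more widely among polysomal samples than the array as a whole, and the samples nearest each other were from different insulin groups. The rule used these same 6 arrays and asked for a high polysomal mean, and the array as a whole includes probe sets at background. The wider range is therefore a description only. The range over the 6 samples had a median of 0.73 log2 units, against 0.50 for all probe sets, and reached 3.89. It was under 0.5 in 49 members and at least 2 in 13. In the 17 members with differences of at least 1.5 its median was 2.43. Polysomal samples 2 without insulin and 1 with insulin were the highest pair in 94 members (16.8% of all probe sets), and samples 1 without insulin and 2 with insulin were the lowest pair in 86 (17.8% of all). The absolute difference of members had a median of 0.11 between no-insulin sample 1 and insulin sample 2, 0.16 between no-insulin sample 2 and insulin sample 1, and 0.22 between both samples numbered 3. Within an insulin group it was 0.27 to 0.47.

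Control probe sets matched this order only in part. The 3′ minus 5′ difference of elongation factor EF1a, which grows where labelled RNA is short of its 5′ end, was 2.25, 1.45 and 0.99 in insulin polysomal samples 1 to 3 and 1.32, 2.55 and 0.88 in those without insulin. It was 0.38 in insulin total RNA, 0.63 in M4, 0.62 in RB, and 1.15 and 1.35 in quiescent samples 1 and 2. The same difference for actin was 2.47, 2.09 and 1.38 on polysomes with insulin and 2.03, 2.61 and 1.15 without, highest in the same pair. In total RNA the actin difference was 1.37 with insulin, 2.27 in M4, 2.01 in RB, and 1.11 and 1.57 in quiescent axes, so that polysomal and total RNA overlapped. For ubiquitin the difference was 1.37, 0.61 and 0.60 on polysomes with insulin and 0.58, 1.33 and 0.59 without. It was 0.27 to 0.61 in total RNA. For cyclophilin it was 0.22, -0.15 and -0.22 on polysomes with insulin and 0.07, 0.20 and -0.14 without. Total RNA gave -0.36 to 0.03 there. Both controls were highest in the same pair. The poly-A spike-ins had medians of 9.57, 10.8 and 7.37 with insulin and 10.8, 9.54 and 8.45 without on polysomes. Their medians in total RNA were 7.17 with insulin, 7.47 in M4, 7.56 in RB, and 9.71 and 9.47 in quiescent axes. The polysomal pair with the highest EF1a difference had the highest member values, and the pair with the highest spike-in signal the lowest. Both samples numbered 3 were in the middle for members but lowest of the polysomal samples for EF1a, actin and the spike-ins. Relative to germinated total RNA, the median member stood 1.26 higher in the first pair, 0.86 in the second and 1.03 in both samples numbered 3, whose EF1a differences of 0.99 and 0.88 lay above those of germinated total RNA and below those of quiescent RNA. The part of 3′ bias and of input amount in the member values was not tested. Leaving out the pair with the highest EF1a difference, an alternative chosen after seeing the data, gave 185 members, 148 of them among the 198.

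**Figure D5:**
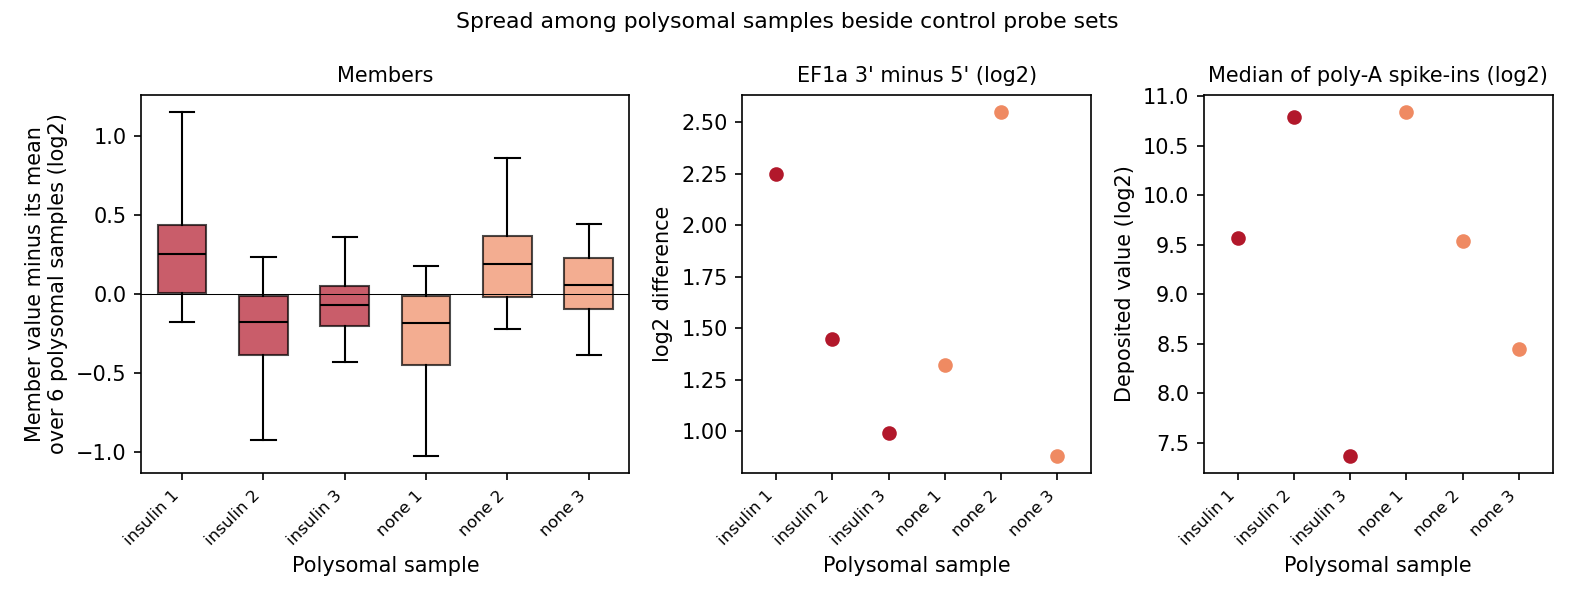
Left, each member's value minus its mean over the 6 polysomal samples (log2; boxes quartiles, whiskers the 5th and 95th percentiles); middle, the EF1a 3′ minus 5′ difference; right, the median poly-A spike-in signal, for the same samples. Insulin 1 and no-insulin 2 are highest for the members and for EF1a, and insulin 2 and no-insulin 1 are lowest for the members and highest for the spike-ins.

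By identifier, members resembled the array: 86.9% had the plain _at suffix, against 87.5% of all probe sets. They came from 194 sequence clusters, the number after the species prefix, and 3 clusters held several members, 7 in all. In cluster Zm.7304, 3 members differed by 1.48, 1.21 and 1.19. In 45 member clusters there were 78 further probe sets, with a median difference of 0.15, and 11 of these (14.1%) lay wholly above germinated total RNA, against 5.67% of all. Cluster Zm.14302 held members Zm.14302.3.A1_at at 0.98 and Zm.14302.1.A1_at at 0.81, and 7 other probe sets between -0.35 and 0.58. Both members were higher in germinated total than in quiescent RNA, by 1.43 and 1.75. Zm.14302.2.A1_a_at, from the same cluster, averaged 11.2 in germinated total RNA and 12.0 in quiescent RNA, the opposite order.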

How the data were processed

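The authors deposited log2 expression values for 17734 probe sets on 14 arrays of the Affymetrix maize array. Per the submitters' processing notes limma was used; the summarization and normalization of probes were not stated in what was read here. The log2 scale was inferred from the range of the deposited values. Labelling started from 4 µg of RNA, per the labels' protocols.

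Members were found on the deposited arrays, leaving out 179 control probe sets. For tests, technical arrays were averaged, giving 11 samples in 5 groups, and limma 3.58.1 in R 4.3.3 was fitted on all groups over 17582 probe sets (27 maize control probe sets included), with Benjamini-Hochberg adjustment. The residual degrees of freedom were 6, and the number of arrays limits the precision. The step was tested on simulated data. Gene names came from GEO's platform annotation through NCBI gene numbers to the RefSeq table of Zm-B73-REFERENCE-NAM-5.0, which pairs few probe sets with a gene. The rule for named genes took the members with 1 gene, members in the gene lists, 5 at each end of the quiescent difference and 3 at each side of the limit; other probe sets named were singled out after their values were seen. The members and lists were chosen with earlier results of these data known. One member paired with a gene, which the rule takes, is not reported here.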

Additional observations from a re-analysis of the deposited data

Results flagged for a closer look

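Of 66 reporter probe sets, which the comparisons do not use and which match no maize gene, 4 were above every negative control on every array, between 4.87 and 7.27 in log2 units. The signal was present on polysomal and total RNA arrays alike, and its source was not tested.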

How the results depend on the processing

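Membership followed the limits: 406 probe sets met a minimum difference of 0.6 and 94 one of 1.0. Quantile normalization gave 231 members (183 shared), median centring 255 (197 shared) and averaging technical arrays 244 (180 shared). Leaving out 1 sample gave 175 to 298, the highest without the insulin total sample. Leaving out 1 sample, members called at 24 h over quiescent axes numbered 64 to 94 higher and 11 to 18 lower, and median centring gave 30 lower. Median centring moved the median of all probe sets to -0.44 for that comparison and to -0.43 for polysomal over quiescent RNA, against -0.17 and -0.19 as deposited; members' medians there were 0.55 and 1.79. Polysomal over quiescent RNA gave 150 to 170 higher and 5 to 7 lower. Insulin in total RNA gave 0 to 9 members and its difference from the polysomal effect 0 to 3, both highest without M4. A lone remaining sample was assumed to vary like the other groups.

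Replicate numbers did not pair polysomal samples: same-numbered samples correlated at -0.63, -0.44 and 0.60 in their deviations. The replicate block called 0 members, as without it. Of 777 values for 37 named members, 726 kept direction and call, 25 lost a call and 11 gained one. The sign turned in 15 values whose difference had not passed the test, among them that of ZmAffx.965.1.A1_at at 24 h without M4 (-0.02), and in none that had passed it.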
